A study of Homo sapiens with 16 samples.

Results

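HT55 and SW948 are established human colorectal cancer cell lines, and here their RNA was compared without drug. The 4 HT55 libraries and the 4 SW948 libraries that carry the label DMSO were taken from a series of 16 libraries, and the comparison ran over every one of the 54127 Ensembl gene identifiers in the count files. Both lines had been grown as adherent cultures in the same serum-containing medium and had received the solvent DMSO, and the RNA was collected on day 6. The remaining 8 libraries, 4 of each line given itraconazole at 5 µM for the same time, did not enter the main comparison. They served to ask whether a difference between the lines was also present in libraries that it did not use. They also entered alternative fits over all 16 libraries and a test of the interaction of line and drug. Each group was 1 cell line in culture, so a difference between the groups belongs to these lines under this solvent and cannot be separated from how each culture was kept. The quadruplicates are biological according to the study's methods, and nothing in the labels says how far the cultures of a line were apart.

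The lining of the colon is renewed from stem cells at the crypt base, where Wnt signalling keeps cells dividing, and cells lose that signal as they move up and become absorptive colonocytes, mucus-filled goblet cells or hormone-secreting enteroendocrine cells. In most colorectal cancers the Wnt pathway is active without its ligands, because the complex of APC, AXIN and kinases that destroys β-catenin is impaired, and β-catenin then switches on target genes with factors of the TCF/LEF family. Several of these targets (AXIN2, NKD1, NOTUM, ZNRF3, RNF43 and APCDD1) are themselves brakes on the pathway. Lines from different tumours can keep different parts of this programme, and they also differ in sterol synthesis, proliferation and the pumps and enzymes that handle drugs.

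Gene counts per library ran from 8269406 to 9441763 in HT55 and from 9002751 to 11110814 in SW948. Levels are given as CPM, the count per 1000000 gene counts after TMM scaling of the library sizes, and differences as log2 of HT55 over SW948, so a positive value is higher in HT55. Of 12820 genes with enough counts to test, 10796 (84.2%) differed at an adjusted p under 0.05 in edgeR, 5339 (41.6%) higher in HT55 and 5457 (42.6%) higher in SW948. These shares are the background for the list counts below, and a list that splits evenly is near them. Since most genes pass at this replicate spread (median CV of 6.36% in HT55 and 7.28% in SW948), members are also counted at a difference of at least 2-fold, which 1951 genes (15.2%) reached in favour of HT55 and 2202 (17.2%) in favour of SW948. The 4 libraries of 1 line lay wholly above the 4 of the other for 78.8% of tested genes, and in the genes described here this separation holds unless an overlap is stated. On plain library totals the median of all genes moved by -0.19, and the calls then split into 4324 higher in HT55 and 6538 higher in SW948, so small differences are best read relative to the median. Mitochondrial genes held 2.11% to 2.19% of gene counts in HT55 and 1.06% to 1.48% in SW948.

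One library stood slightly apart. SW948 replicate 3 held 32 counts over the 43 genes found nearly only in HT55 (described below), against 9, 12 and 10 in the other SW948 libraries, and its deviations from the line's mean had an SD of 0.14 on the log2 scale against 0.11 to 0.12 in the others. It was the highest SW948 library for NOTUM, SLC26A3 and INSIG1, among others. Values without it are given beside several of the results below, and its part in the others was not tested.

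The labelled tissue was checked first. Markers of colorectal epithelium were present in both lines. In bulk libraries fewer cells of a type and less RNA per cell cannot be told apart, so the levels are averages over each culture. EPCAM, an adhesion protein of simple epithelia, was at 1432, 1484, 1518 and 1452 CPM in HT55 and 1618, 1583, 1565 and 1637 CPM in SW948 (log2 difference -0.12 ± 0.040 SE, edgeR adjusted p = 0.00789), and its small difference was not called in a fit over the 16 libraries. VIL1, which bundles actin in microvilli, was at 939, 921, 982 and 928 CPM in HT55 and 511, 523, 582 and 501 CPM in SW948 (log2 difference 0.83 ± 0.046 SE, edgeR adjusted p = 1.87e-14). CDH17, the liver-intestine cadherin, was at 1201, 1187, 1170.3 and 1187 CPM in HT55 and 956, 977, 944 and 984 CPM in SW948 (log2 difference 0.30 ± 0.039 SE, edgeR adjusted p = 1.54e-07). The intestinal master factors CDX1 and CDX2 were at 90.2 ± 4.6 CPM in HT55 against 63.6 ± 7.9 CPM in SW948 and at 293 ± 25 CPM in HT55 against 223 ± 17 CPM in SW948 (mean ± SD, n = 4), with log2 differences of 0.50 ± 0.065 and 0.39 ± 0.055 (SE; edgeR adjusted p = 1.36e-07 and 4.80e-07). For CDX2, where SW948 replicate 3 was the highest library of its line, the log2 difference without it was 0.45. Keratins of simple epithelium were also abundant: KRT18 lay at 1959, 2025, 2079 and 2066 CPM in HT55 and 1120.3, 1081, 1124 and 1146 CPM in SW948 (log2 difference 0.86 ± 0.041 SE, edgeR adjusted p = 8.24e-16), and of the 9 keratins tested 7 passed the test in favour of HT55 and 2, KRT20 and KRT7, in favour of SW948.

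Markers of other cell types were at or near 0. The fibroblast list summed to 3.599 to 5.45 CPM in the HT55 libraries and 9.07 to 13.6 CPM in SW948 over 12 genes, 4 of which had no count in the 8 libraries (COL3A1, DCN, PDGFRA and THY1). The contractile gene TAGLN and COL1A1 were the only ones to pass the filter. COL1A1, the main fibrillar collagen, was at 0.709, 0.787, 0.234 and 0.778 CPM in HT55 and 3.01, 4.26, 4.17 and 2.46 CPM in SW948 (log2 difference -2.43 ± 0.31 SE, edgeR adjusted p = 9.04e-08). The immune list summed to 32.2 to 37.1 CPM in HT55 and 19.5 to 27.2 CPM in SW948, nearly all of it CD68, a lysosomal protein that is not confined to macrophages. PTPRC, which marks leukocytes, had counts of 0, 1, 0 and 0 in the HT55 libraries and 0 in each SW948 library, and CD3D and CD3E had none. Endothelial, hepatocyte and squamous lists held 10, 41 and 11 counts in HT55 and 101, 170 and 25 in SW948 over 4 libraries each. The endothelial counts of SW948 were mostly ERG, with 91 of the 101, against 1 in HT55, while CDH5, KDR and CLDN5 had none. Of the 170 hepatocyte counts of SW948, 162 were CPS1, an enzyme of ammonia handling that intestine also makes, and ALB had 1 count in all. The squamous factor TP63 had 2 counts, and the squamous keratins KRT5 and KRT14 had none.

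The gene lists described from here on are drawn together in the strip plot of list members.

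**Figure D1:**
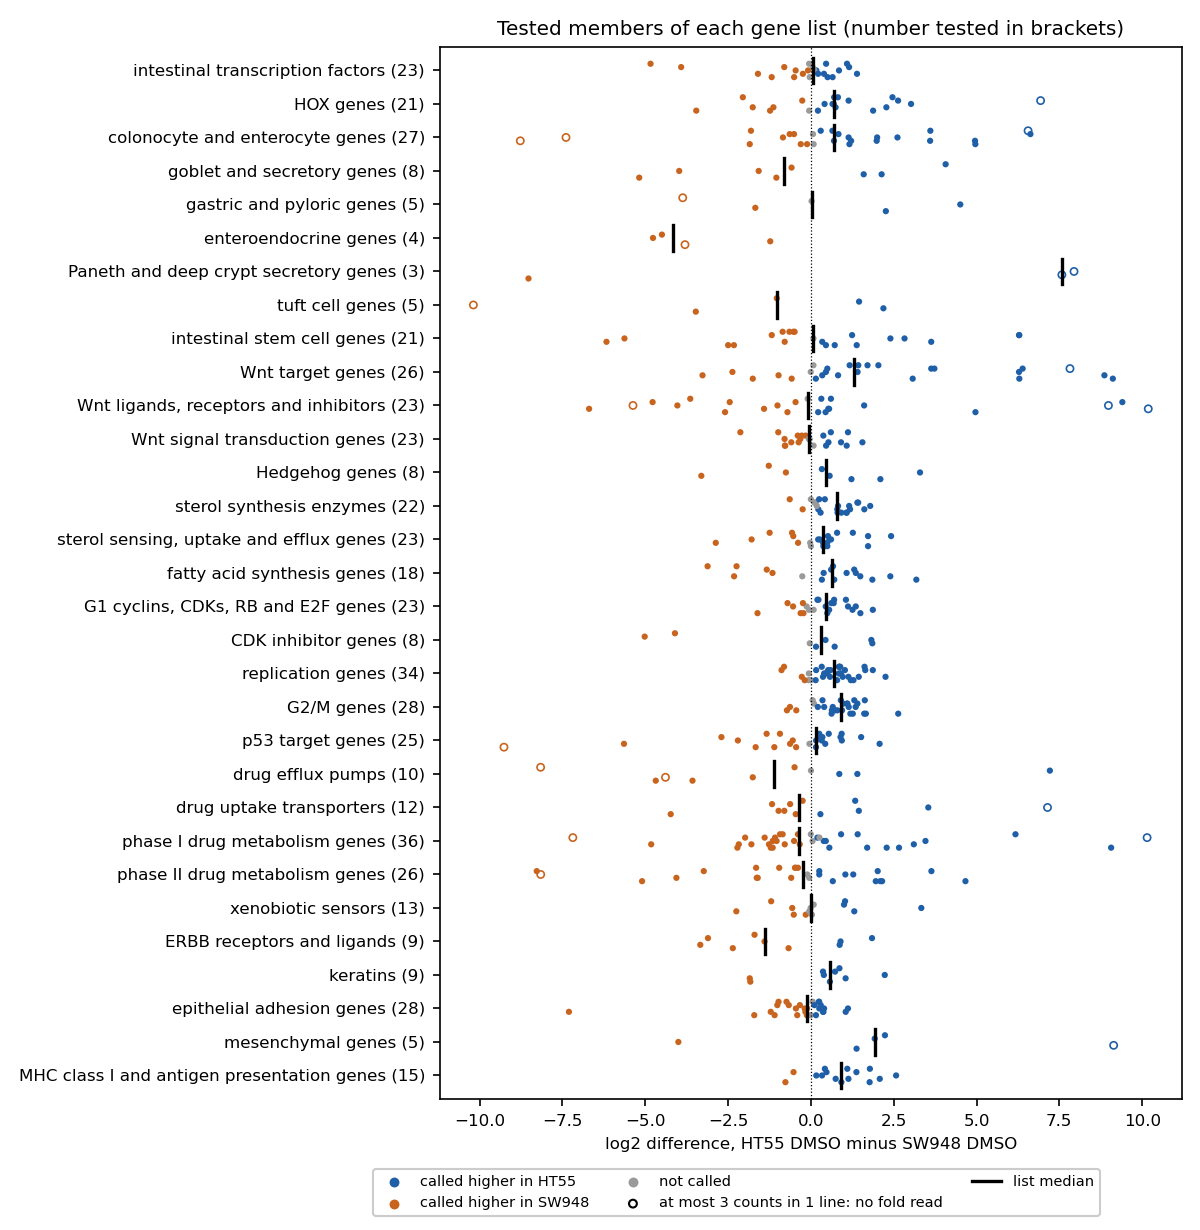
Each point is 1 tested gene, placed by its log2 difference between HT55 DMSO and SW948 DMSO (4 libraries against 4, edgeR), in rows for the gene lists with at least 3 tested members. Blue and orange points passed an adjusted p under 0.05, grey points did not, open circles had at most 3 counts in 1 line so that their position sets no fold, and black bars are list medians. Wnt targets (median 1.29), G2/M genes (0.92) and sterol synthesis enzymes (0.80) lie mostly to the right, and ERBB receptors and ligands (-1.40) and drug efflux pumps (-1.12) mostly to the left.

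Some genes were present in 1 line and nearly absent from the other. HT55 had 43 genes at 10 CPM or more in each of its libraries with at most 3 counts over the 4 SW948 libraries, and SW948 had 35 in the reverse sense. Of these, 38 and 31 are protein coding. They lay on 18 chromosomes in HT55 and 17 in SW948, with at most 5 genes on any 1 chromosome. No count at all in the other line was found for 9 of the 43 and 10 of the 35. Without SW948 replicate 3 the numbers were 53 and 37. These genes were chosen by their levels in these libraries, so their differences are a description and carry no test.

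The genes found in HT55 included homeobox factors and a Wnt ligand. VENTX, a homeobox factor, was at 65.8, 58.9, 63.9 and 54.4 CPM in HT55 and had 1 count in SW948, a ratio of 2635 (95% exact interval 472 to 104145). DLX3 was at 33.9, 32.7, 34.5 and 30.7 CPM with no count in SW948, at least 476-fold higher when set against a floor of 3 counts over the 4 libraries. DLX5 lay at 24.3, 23.7, 32.5 and 26.5 CPM with 2 counts in SW948. Its neighbour DLX6 and the antisense transcript DLX6-AS1, named here after their values were seen, met the same rule, and without known strand handling reads from DLX6 and DLX6-AS1 cannot be told apart. WNT5B, a Wnt ligand that mostly signals without β-catenin, was at 45.2, 40.2, 44.5 and 37.7 CPM with 1 count in SW948.

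CHST15, which adds sulphate to chondroitin chains, was at 63.7, 59.4, 55.6 and 63.7 CPM in HT55 against 1 count in SW948. GZMB, the serine protease granzyme B better known from cytotoxic lymphocytes, was at 58.4, 52.7, 65.2 and 56.9 CPM against 2 counts, in libraries without CD3D or CD3E. NLRP2, an inflammasome-family protein, was steady at 55.2, 55.3, 53.8 and 53.3 CPM against 2 counts. The remaining HT55 genes named by level were the tryptase TPSG1 (32.3 ± 1.5 CPM), SLFN13 (31.2 ± 1.9 CPM), the zinc finger genes ZFP3 (31.0 ± 2.1 CPM) and ZNF518B (30.5 ± 0.94 CPM), and the T-type calcium channel gene CACNA1H (28.2 ± 1.6 CPM; each mean ± SD, n = 4). Their SW948 counts over 4 libraries were 2, 0, 3, 1 and 0.

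In the other direction TRIP6 (ENSG00000087077, chromosome 7, 100465009 to 100471076, plus strand, GRCh37), a zyxin-family LIM protein of adhesion sites, was the gene with the highest mean CPM among the 35 of SW948, at 136, 124, 146 and 134 CPM with 1 count over the 4 HT55 libraries, a ratio of 4542 (95% exact interval 815 to 179440). SLC7A2, a transporter of cationic amino acids, was at 73.1, 86.4, 69.5 and 79.6 CPM against 3 counts, and STOM, the membrane protein stomatin, at 73.9, 81.2, 67.0 and 72.9 CPM against 3 counts. TANC2, DAPK1, PGAP4 and RTN4RL1 had no count in HT55. DAPK1, a kinase tied to cell death, was at 28.5, 31.8, 28.6 and 31.1 CPM, at least 336-fold higher. The Rab GTPase gene RAB27B lay at 53.2, 54.8, 53.9 and 49.7 CPM, and IQGAP2, NID1, SIDT1 and KLF9 had means between 32.0 ± 2.0 and 36.7 ± 3.2 CPM (mean ± SD, n = 4) with 2 or 3 counts each in HT55.

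Given itraconazole, the 43 HT55 genes still had a positive log2 difference in each case, and 33 of the 35 SW948 genes had a negative one. The strict rule itself was met again by 16 of the 43 and 15 of the 35, and the line that lacked the gene had passed 3 counts for 6 of the HT55 genes and 12 of the SW948 genes.

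A further set was ranked among protein-coding genes with a mean of at least 1 CPM in both lines, and 12 were taken in each direction. These too were chosen by their differences, so the p-values beside them come from the values that chose them. On the HT55 side the first was a Wnt antagonist, as were 2 others of the 12. NOTUM (ENSG00000185269, chromosome 17, 79910383 to 79919716, minus strand, GRCh37), a lipase that removes the palmitoleate group Wnt ligands need, was at 866, 854, 1088 and 857 CPM in HT55 and 0.884, 1.04, 3.79 and 0.932 CPM in SW948 (log2 difference 9.11 ± 0.15 SE, edgeR adjusted p = 7.20e-25). Replicate 3 was the highest SW948 library for NOTUM, and the log2 difference without it was 9.90. APCDD1, a membrane inhibitor of Wnt receptors, was at 458, 452, 557 and 446 CPM in HT55 and 1.59, 0.415, 1.23 and 0.763 CPM in SW948 (log2 difference 8.86 ± 0.13 SE, edgeR adjusted p = 4.66e-26). NKD1, which binds Dishevelled, was at 561, 528, 615 and 559 CPM in HT55 and 6.19, 5.61, 9.85 and 5.34 CPM in SW948 (log2 difference 6.39 ± 0.091 SE, edgeR adjusted p = 4.93e-26). In all 3 the lowest HT55 library was far above the highest SW948 library.

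SLC26A3, the chloride-bicarbonate exchanger of surface colonocytes, was at 653, 626, 551 and 569.6 CPM in HT55 and 3.80, 3.22, 15.3 and 2.29 CPM in SW948 (log2 difference 6.63 ± 0.20 SE, edgeR adjusted p = 6.56e-20). Replicate 3 was again the high SW948 library, and without it the log2 difference was 7.60. PROX1, a homeobox factor induced by Wnt in colorectal tumours, was at 129, 126, 120.3 and 132 CPM in HT55 and 1.42, 1.87, 1.52 and 1.70 CPM in SW948 (log2 difference 6.28 ± 0.088 SE, edgeR adjusted p = 4.45e-26). A further 6 of the 12 genes were FAIM2, LAMA2, CDHR1, NRXN3, PTPRU and CBS, with HT55 means from 61.3 ± 4.9 (NRXN3) to 189.7 ± 12 CPM (CDHR1) and log2 differences from 5.67 ± 0.11 (CBS, the enzyme that makes cystathionine) to 6.95 ± 0.093 (FAIM2; SE).

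The 12 on the SW948 side began with a growth factor and a BMP antagonist. TGFB1, transforming growth factor β1, was at 0.945, 1.12, 1.64 and 0.649 CPM in HT55 and 100.4, 94.9, 111 and 102 CPM in SW948 (log2 difference -6.52 ± 0.12 SE, edgeR adjusted p = 5.60e-24). GREM1, a secreted BMP antagonist, was at 1.30, 1.01, 1.28 and 1.30 CPM in HT55 and 102, 115, 123 and 103 CPM in SW948 (log2 difference -6.49 ± 0.12 SE, edgeR adjusted p = 5.43e-24). The HT55 libraries had only traces of either RNA. DSC3, a desmosomal cadherin of stratified epithelia, was at 0.945, 1.01, 1.17 and 0.908 CPM in HT55 and 66.8, 74.6, 64.7 and 68.3 CPM in SW948 (log2 difference -6.06 ± 0.12 SE, edgeR adjusted p = 1.76e-23). ENAH, which extends actin filaments, had the highest mean CPM in SW948 among the 12 and was at 4.73, 5.62, 4.79 and 5.06 CPM in HT55 and 204, 240.4, 223 and 214 CPM in SW948 (log2 difference -5.44 ± 0.079 SE, edgeR adjusted p = 6.03e-26). DUSP4, a phosphatase that restrains ERK, was at 1.06, 1.12, 0.818 and 1.43 CPM in HT55 and 50.8, 52.9, 44.2 and 53.1 CPM in SW948 (log2 difference -5.50 ± 0.14 SE, edgeR adjusted p = 1.59e-21). The other members were CCDC88A, TOR4A, RAB6B, RGS16, LAPTM4B, DENND5A and the drug pump gene ABCB1 (below), with log2 differences between -5.78 ± 0.14 (CCDC88A) and -4.64 ± 0.083 (DENND5A; SE).

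Wnt target genes were higher in HT55 as a group. Of the 26 tested, 19 passed the test higher in HT55 and 5 higher in SW948, 14 and 3 of them by at least 2-fold, and the list median was 1.29 against -0.012 over all tested genes. Summed over its 27 genes the list held 6164 to 6906 CPM in the HT55 libraries and 2542 to 2565 CPM in SW948. The counts were 19 and 5 without SW948 replicate 3 as well. AXIN2 (ENSG00000168646, chromosome 17, 63524681 to 63557766, minus strand, GRCh37), the scaffold that is a widely used readout of the pathway, was at 837, 813, 908 and 794 CPM in HT55 and 94.4, 99.8, 114 and 90.9 CPM in SW948 (log2 difference 3.07 ± 0.059 SE, edgeR adjusted p = 1.12e-23). The lowest HT55 library thus held several times the CPM of the highest SW948 library.

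Targets did not move as a block. MYC was at 325, 324, 322 and 323 CPM in HT55 and 322, 315, 327 and 333 CPM in SW948 (log2 difference -0.0042 ± 0.038 SE, edgeR adjusted p = 0.920), and the libraries of the lines were interleaved. CD44, an adhesion receptor, did not pass either (568 ± 30 CPM in HT55 against 538 ± 7.9 CPM in SW948, mean ± SD, n = 4), was named after its values were seen, and was called higher in SW948 on plain library totals. LEF1, itself a TCF/LEF factor, was lower in HT55, at 9.69, 7.31, 9.46 and 8.69 CPM in HT55 and 29.5, 31.7, 30.2 and 27.4 CPM in SW948 (log2 difference -1.75 ± 0.095 SE, edgeR adjusted p = 1.07e-14), and is likewise named after its values were seen. DKK1 and DKK4, secreted inhibitors of the LRP co-receptors, were low in both lines. DKK1 was at 0.236, 0, 0.234 and 0.130 CPM in HT55 and 1.504, 1.35, 1.71 and 1.61 CPM in SW948 (log2 difference -3.27 ± 0.44 SE, edgeR adjusted p = 2.87e-07). DKK4 was at 0.473, 0.562, 0.350 and 0.519 CPM in HT55 and 3.01, 1.66, 2.08 and 3.14 CPM in SW948 (log2 difference -2.37 ± 0.33 SE, edgeR adjusted p = 3.60e-07). CCND1, cyclin D1, was at 344, 331, 349 and 338 CPM in HT55 and 233, 258, 243 and 232 CPM in SW948 (log2 difference 0.50 ± 0.042 SE, edgeR adjusted p = 5.91e-11).

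SP5, a zinc finger factor switched on by β-catenin and named for its promoter, was at 64.6, 70.3, 76.6 and 61.5 CPM in HT55 and 5.04, 3.84, 5.78 and 5.76 CPM in SW948 (log2 difference 3.73 ± 0.10 SE, edgeR adjusted p = 7.86e-21). Its promoter is shown because it was the only one among the 13 Wnt targets with an entry in the RefSeq promoter table (GRCh38.p14) that held the core letters of a TCF/LEF site, ATCAAAG, read on both strands in the 250 bases before and the 50 bases after the start. Those letters stood in 1.34% of the 9560 promoters of tested protein-coding genes. As only 13 of the 27 targets had an entry, no share is read for the list. The 250 bases before the start (chr2:170715087-170715336, plus strand) are printed with the match in capitals, and its first base is 109 bases before the start.
SP5: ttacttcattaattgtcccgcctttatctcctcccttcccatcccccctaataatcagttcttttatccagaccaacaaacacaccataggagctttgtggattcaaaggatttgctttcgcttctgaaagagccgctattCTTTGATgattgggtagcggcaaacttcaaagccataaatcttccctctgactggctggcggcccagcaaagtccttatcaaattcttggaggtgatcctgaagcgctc

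**Figure D2:**
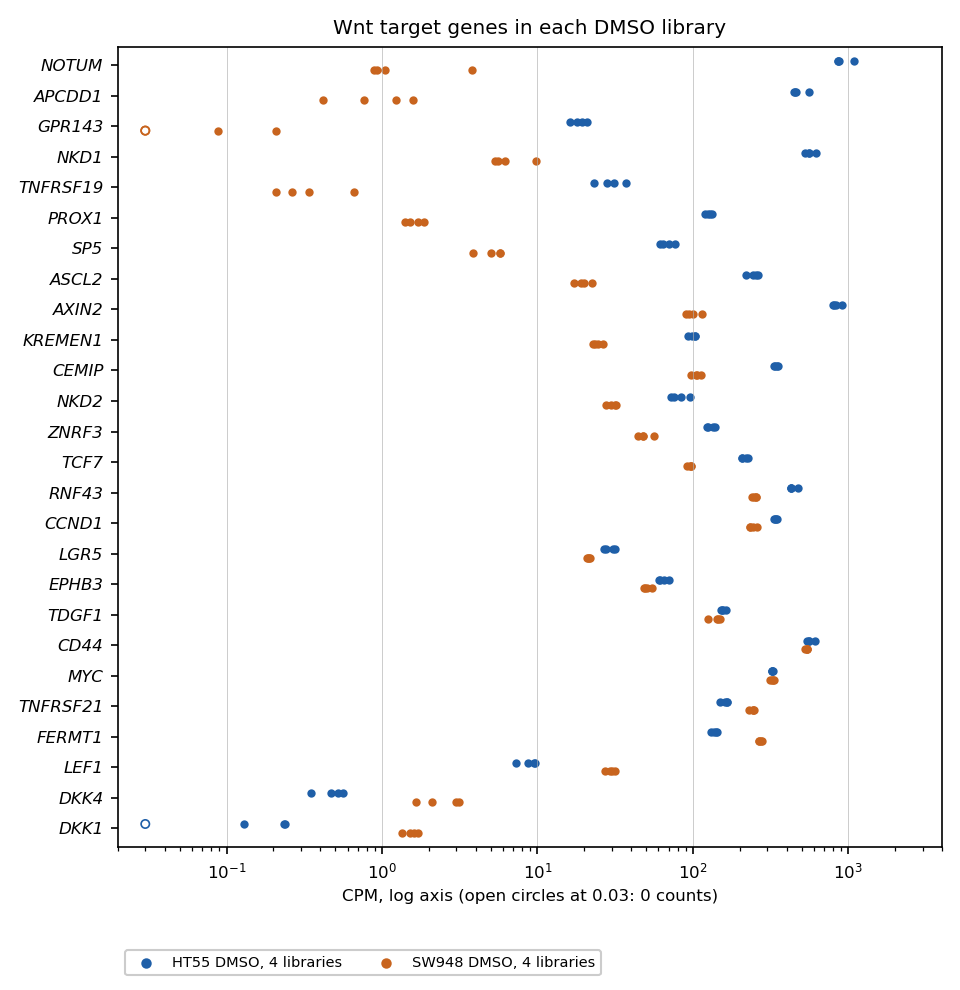
CPM of the 26 tested Wnt target genes on a log axis, 1 point per library, in order of the log2 difference. Blue points are the 4 HT55 DMSO libraries and orange points the 4 SW948 DMSO libraries, with open circles for 0 counts. The lines are far apart from NOTUM down to AXIN2, meet at CD44 and MYC, and change order from TNFRSF21 down to DKK1.

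Upstream of β-catenin there was no common direction. Ligands, receptors and secreted inhibitors split into 11 higher in HT55 and 11 higher in SW948 of 23 tested, 5 and 9 by at least 2-fold (median -0.097). All tested genes split about evenly as well (41.6% and 42.6%). The calls of this list were 8 and 12 on plain library totals. Apart from WNT5B, HT55 carried FZD10, a receptor with little expression in most adult tissues, which was at 208, 209, 223 and 207 CPM in HT55 and 0.177, 0.311, 0.474 and 0.254 CPM in SW948 (log2 difference 9.40 ± 0.11 SE, edgeR adjusted p = 1.14e-27). SW948 carried ROR1, a receptor kinase for WNT5A, which was at 0, 0, 0.117 and 0.389 CPM in HT55 and 12.8, 15.2, 13.5 and 13.3 CPM in SW948 (log2 difference -6.69 ± 0.30 SE, edgeR adjusted p = 3.13e-16). FZD2 was at 2.56, 2.70, 4.07 and 2.63 CPM in SW948 with 2 counts in HT55, a ratio of 50.1 (95% exact interval 13.6 to 418). None of the 4 R-spondin genes, which amplify Wnt through LGR receptors, had more than 1 count in a line.

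Signal transduction genes also split, with 8 higher in HT55 and 11 higher in SW948 of 23 tested (8 and 14 on plain library totals). Only 3 and 1 differed by 2-fold (median -0.058). APC, the scaffold of the destruction complex, was at 34.3, 32.3, 24.99 and 30.5 CPM in HT55 and 48.8, 58.3, 49.7 and 52.2 CPM in SW948 (log2 difference -0.77 ± 0.079 SE, edgeR adjusted p = 2.03e-09). CTNNB1, which encodes β-catenin, was at 578, 583, 641 and 615 CPM in HT55 and 397, 398, 391 and 405 CPM in SW948 (log2 difference 0.60 ± 0.042 SE, edgeR adjusted p = 1.30e-12). The Groucho co-repressors went in opposite directions: TLE3 was at 137, 131, 145 and 137 CPM in HT55 and 47.4, 46.2, 46.2 and 47.1 CPM in SW948 (log2 difference 1.56 ± 0.048 SE, edgeR adjusted p = 1.28e-19). TLE1 was at 6.26, 9.33, 8.29 and 8.95 CPM in HT55 and 35.7, 38.1, 33.4 and 36.6 CPM in SW948 (log2 difference -2.13 ± 0.10 SE, edgeR adjusted p = 3.32e-16). BTRC, the ubiquitin ligase adaptor that recognises β-catenin, was at 30.2, 29.2, 29.0 and 31.3 CPM in HT55 and 14.8, 13.7, 11.8 and 14.6 CPM in SW948 (log2 difference 1.12 ± 0.082 SE, edgeR adjusted p = 4.56e-12). TCF7L1, the most repressive TCF, was near 1 CPM in both lines (log2 difference -0.98 ± 0.37 SE, edgeR adjusted p = 0.0165), and its call was lost without HT55 replicate 3 or SW948 replicate 2.

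The genes used to mark crypt stem cells split evenly. Of 21 tested, 10 passed higher in HT55 and 10 higher in SW948, 7 and 5 by at least 2-fold, with a median of 0.077. Over all tested genes 41.6% and 42.6% were called in these directions, so an even split is not particular to this list. LGR5, ASCL2, EPHB3, CD44, TNFRSF19 and PROX1 were also counted among the Wnt targets above, so the lists are not independent. ASCL2, the Wnt-driven master factor of these cells, was at 253, 243, 260.3 and 219 CPM in HT55 and 19.0, 17.1, 22.3 and 20 CPM in SW948 (log2 difference 3.63 ± 0.067 SE, edgeR adjusted p = 4.82e-24). PTK7, a pseudokinase used to sort colon stem cells, was at 638, 616, 654 and 614 CPM in HT55 and 93.6, 84.3, 88.2 and 89.1 CPM in SW948 (log2 difference 2.83 ± 0.045 SE, edgeR adjusted p = 3.16e-25). EPHB2, a receptor that positions cells along the crypt, was at 266, 241, 253 and 249 CPM in HT55 and 89.7, 96.7, 106 and 94.4 CPM in SW948 (log2 difference 1.38 ± 0.049 SE, edgeR adjusted p = 2.01e-18). LGR5, the R-spondin receptor used to define the stem cell, was closer, at 30.5, 31.6, 26.6 and 27.6 CPM in HT55 and 21.3, 21.2, 21.7 and 20.8 CPM in SW948 (log2 difference 0.45 ± 0.075 SE, edgeR adjusted p = 5.04e-06).

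The reverse held for OLFM4, a secreted crypt base protein, which was at 0.709, 0.225, 0.117 and 0.130 CPM in HT55 and 13.5, 14.8, 19.4 and 13.6 CPM in SW948 (log2 difference -5.63 ± 0.28 SE, edgeR adjusted p = 1.80e-15). PROM1, which encodes CD133, was at 0.591, 0.675, 0.818 and 0.519 CPM in HT55 and 44.2, 49.1, 53.2 and 45.8 CPM in SW948 (log2 difference -6.17 ± 0.15 SE, edgeR adjusted p = 8.23e-22). HT55 had next to no RNA of either. SOX9, a crypt base factor, was at 390.5, 381, 383 and 374 CPM in HT55 and 225, 249, 224 and 231 CPM in SW948 (log2 difference 0.72 ± 0.042 SE, edgeR adjusted p = 3.98e-14). TNFRSF19, a receptor of the TNF family and Wnt target, was at 31.1, 28.1, 37.3 and 23.0 CPM in HT55 and 0.265, 0.208, 0.663 and 0.339 CPM in SW948 (log2 difference 6.29 ± 0.23 SE, edgeR adjusted p = 3.80e-18). The order of the lines by ASCL2 or TNFRSF19 was thus the reverse of that by OLFM4 or PROM1.

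Intestinal transcription factors had no common direction. Of 23 tested, 10 were higher in HT55 and 9 in SW948 (8 and 11 on plain library totals), 3 and 4 by at least 2-fold, with a median of 0.053. This is near the shares over all tested genes (41.6% and 42.6%). HNF4A, a nuclear receptor of absorptive cells, was at 169, 164, 170.0 and 164 CPM in HT55 and 146, 151, 147 and 151 CPM in SW948 (log2 difference 0.17 ± 0.040 SE, edgeR adjusted p = 4.76e-04), and this small difference turned to the other sign on plain library totals. KLF4, a factor of differentiated cells, was at 146, 144, 142 and 138 CPM in HT55 and 58.6, 51.2, 51.4 and 55.3 CPM in SW948 (log2 difference 1.39 ± 0.050 SE, edgeR adjusted p = 2.61e-18). FOXA1 and NR5A2 were higher in SW948 but low there as well. FOXA1 was at 0.709, 0, 0.117 and 0.130 CPM in HT55 and 6.10, 7.68, 7.67 and 7.29 CPM in SW948 (log2 difference -4.84 ± 0.34 SE, edgeR adjusted p = 1.91e-12). NR5A2 was at 0.354, 0.337, 0.934 and 0.259 CPM in HT55 and 7.61, 6.54, 7.77 and 7.46 CPM in SW948 (log2 difference -3.92 ± 0.26 SE, edgeR adjusted p = 4.52e-13).

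HOX genes carry a cell's position along the body axis. Of 21 tested, 14 were higher in HT55 and 6 in SW948, 7 and 5 by at least 2-fold (median 0.69). HOXC6 was at 7.68, 5.74, 6.77 and 6.49 CPM in HT55 and 1.15, 0.830, 0.379 and 0.848 CPM in SW948 (log2 difference 3.02 ± 0.23 SE, edgeR adjusted p = 7.55e-12), and HOXC11 at 1.54, 1.46, 1.64 and 1.69 CPM in HT55 with no count in SW948, at least 22.7-fold higher. HOXD4 and HOXD3 were higher in SW948, at levels of a few CPM. HOXD4 was at 0.473, 0.450, 0.117 and 0 CPM in HT55 and 4.86, 3.43, 1.71 and 2.29 CPM in SW948 (log2 difference -3.46 ± 0.47 SE, edgeR adjusted p = 3.15e-07). HOXD3 was at 0.354, 0.675, 0.701 and 0.389 CPM in HT55 and 3.01, 2.08, 1.90 and 2.03 CPM in SW948 (log2 difference -2.05 ± 0.31 SE, edgeR adjusted p = 1.73e-06). HOXB13, a marker of the distal bowel and prostate, was also higher in SW948, at 2.95, 2.36, 3.74 and 2.85 CPM in HT55 and 10.5, 8.82, 11.4 and 9.49 CPM in SW948 (log2 difference -1.75 ± 0.16 SE, edgeR adjusted p = 1.92e-10).

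Colonocyte genes were mostly higher in HT55, 16 against 9 of 27 tested and 12 against 4 by at least 2-fold, with a median of 0.70. CEACAM5, the carcinoembryonic antigen, was at 1452, 1423, 1386 and 1451 CPM in HT55 and 359.9, 371, 337 and 374 CPM in SW948 (log2 difference 1.99 ± 0.044 SE, edgeR adjusted p = 1.69e-22). GUCA2A, the peptide guanylin, was at 6.38, 7.99, 8.88 and 7.65 CPM in HT55 against 3 counts in SW948, a ratio of 112 (95% exact interval 37.8 to 545). SLC26A3, given above, belongs to the same list. The 4 at least 2-fold higher in SW948 were KRT20, CA2, FABP2 and ALPI. KRT20, the keratin of surface colonocytes, was at 209, 195, 207 and 196 CPM in HT55 and 741, 727, 693 and 739.6 CPM in SW948 (log2 difference -1.84 ± 0.043 SE, edgeR adjusted p = 4.02e-22). CA2, carbonic anhydrase 2, was at 5.39, 5.81, 5.97 and 5.51 CPM in SW948 with no count in HT55, at least 63.4-fold higher, and FABP2, the intestinal fatty acid binding protein, at 7.08, 7.37, 7.01 and 7.20 CPM against 1 count. ALPI, intestinal alkaline phosphatase, was at 0.382 ± 0.16 CPM in HT55 against 1.39 ± 0.21 CPM in SW948 (mean ± SD, n = 4).

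Goblet cell genes were few and split. In this list 5 of the 8 tested were higher in SW948 and 3 in HT55, 4 and 3 by at least 2-fold (median -0.81), and a further 12 genes were below the filter. MUC2, the gel-forming mucin of the colon, was at 0.709, 0.225, 0.467 and 0.259 CPM in HT55 and 13.5, 15.1, 16.01 and 17.5 CPM in SW948 (log2 difference -5.18 ± 0.22 SE, edgeR adjusted p = 1.15e-16). AGR2, which folds mucins, was at 33.4, 33.7, 32.5 and 32.9 CPM in HT55 and 564, 528, 413 and 579 CPM in SW948 (log2 difference -3.97 ± 0.085 SE, edgeR adjusted p = 9.57e-23). TFF3, a trefoil peptide of the same cells, went the other way, at 56.7, 59.5, 53.6 and 57.2 CPM in HT55 and 19.0, 14.01, 22.6 and 19.2 CPM in SW948 (log2 difference 1.59 ± 0.087 SE, edgeR adjusted p = 1.16e-14). BCAS1 did so as well, at 22.9, 20.8, 19.6 and 17.9 CPM in HT55 and 1.33, 1.45, 1.04 and 1.02 CPM in SW948 (log2 difference 4.07 ± 0.15 SE, edgeR adjusted p = 8.24e-18). KLK1, a kallikrein, was at 47.0, 57.7, 46.5 and 53.1 CPM in HT55 and 12.3, 13.3, 11.5 and 9.66 CPM in SW948 (log2 difference 2.14 ± 0.091 SE, edgeR adjusted p = 9.44e-17). SPDEF, a factor needed for goblet maturation, had 0 counts in HT55 and 8, 3, 1 and 9 in SW948 (exact permutation test, two-sided, p = 0.0286, the smallest 4 against 4 libraries can give, adjusted p = 0.0629 over 11 such genes).

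LYZ, the lysozyme of Paneth cells, was the only tested gene of the Paneth cell list with more than 3 counts in both lines, at 1.30, 0.450, 0.818 and 1.17 CPM in HT55 and 355, 340.5, 383 and 318 CPM in SW948 (log2 difference -8.54 ± 0.11 SE, edgeR adjusted p = 2.02e-26). The defensins were nearly absent: DEFA6 was at 2.84, 2.92, 1.87 and 2.21 CPM in HT55 with no count in SW948, and DEFA5 had 0 counts in HT55 and 6 in SW948 (exact permutation test, two-sided, p = 0.0286, adjusted p = 0.0629). KIT, a receptor kinase, was at 8.74, 8.43, 9.11 and 9.21 CPM in HT55 against 1 count. Enteroendocrine genes were low, and only 4 of the 21 listed were tested. These 4 were higher in SW948, as were 42.6% of all tested genes. CHGB, SCG5 and PAX6 could pass the filter only through their SW948 libraries, so their direction was set by being tested and is no result about the cell type. SCG5, a chaperone of prohormone convertase, was at 0.591, 0.562, 0.701 and 0.519 CPM in HT55 and 17.4, 15.4, 18.0 and 15.3 CPM in SW948 (log2 difference -4.77 ± 0.19 SE, edgeR adjusted p = 1.55e-17). PAX6, an islet and endocrine factor, was at 0.473, 0.450, 0.584 and 0.259 CPM in HT55 and 10.97, 10.3, 9.29 and 10.8 CPM in SW948 (log2 difference -4.50 ± 0.22 SE, edgeR adjusted p = 1.57e-15). CHGA had no count in the 8 libraries, which allows at most 3 counts in each line's 4 libraries together.

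Tuft cell genes were divided, with 2 higher in HT55 and 3 higher in SW948 of 5 tested. TRPM5, the taste-type cation channel, was at 5.79, 5.29, 4.20 and 4.67 CPM in HT55 and 1.24, 0.415, 1.71 and 0.932 CPM in SW948 (log2 difference 2.19 ± 0.25 SE, edgeR adjusted p = 1.33e-08). AVIL, an actin-binding protein, was at 1.65, 1.35, 2.10 and 1.30 CPM in HT55 and 0.531, 0.830, 0.190 and 0.763 CPM in SW948 (log2 difference 1.45 ± 0.34 SE, edgeR adjusted p = 3.97e-04). The master factor of tuft cells, POU2F3, went the other way, at 0.236, 0.337, 0.234 and 0.130 CPM in HT55 and 2.56, 2.80, 3.03 and 2.71 CPM in SW948 (log2 difference -3.47 ± 0.33 SE, edgeR adjusted p = 6.04e-10). ALOX5, which makes leukotrienes, was at 17.5, 14.3, 14.1 and 14.5 CPM in SW948 with no count in HT55, at least 169.8-fold higher. Of 5 gastric genes tested, 2 were higher in each line (median 0.022). Without SW948 replicate 3 they were 2 and 1 (median 1.32), and 2 and 1 also without SW948 replicate 1. Genes were filtered again in these fits, so the counts and the median of 1.32 cover only the members that still passed the filter. MUC1, a membrane mucin, was at 27.1, 28.7, 24.1 and 22.2 CPM in HT55 and 0.708, 1.56, 1.42 and 0.848 CPM in SW948 (log2 difference 4.51 ± 0.17 SE, edgeR adjusted p = 4.36e-18). SOX2, a foregut factor, was at 3.78, 3.15, 4.32 and 3.11 CPM in HT55 and 0.354, 0.623, 1.23 and 0.763 CPM in SW948 (log2 difference 2.26 ± 0.27 SE, edgeR adjusted p = 4.09e-08). TFF1, a gastric trefoil peptide, was higher in SW948, at 0.591, 0.337, 0.818 and 0.908 CPM in HT55 and 3.27, 1.56, 1.71 and 1.86 CPM in SW948 (log2 difference -1.68 ± 0.34 SE, edgeR adjusted p = 7.96e-05). MUC5AC, the gastric mucin, overlapped near 1 CPM (log2 difference 0.022 ± 0.29 SE, edgeR adjusted p = 0.949). CTSE had 3 counts in HT55 and 64 in SW948, a ratio of 16.6 (95% exact interval 5.42 to 82.5).

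Hedgehog signalling was of interest because itraconazole is known to act on SMO, the pathway's transducer. SMO itself was near the limit of detection: its counts were 5, 6, 9 and 3 in HT55 and 1, 2, 1 and 1 in SW948 (exact permutation test, two-sided, p = 0.0286, adjusted p = 0.0629). GLI1, the target gene and effector, had 1, 1, 2 and 0 counts in HT55 and 7, 3, 10 and 5 in SW948 (exact permutation test, two-sided, p = 0.0286, adjusted p = 0.0629), while neither GLI2 nor GLI3 passed 2 counts in a line. PTCH1, the receptor and a further target, was abundant, at 246, 230.2, 254 and 236 CPM in HT55 and 24.6, 26.6, 24.1 and 23.5 CPM in SW948 (log2 difference 3.29 ± 0.053 SE, edgeR adjusted p = 3.88e-25). The ligand SHH was at 123, 122, 121 and 127 CPM in HT55 and 25.7, 27.6, 36.95 and 25 CPM in SW948 (log2 difference 2.10 ± 0.076 SE, edgeR adjusted p = 3.59e-18). SUFU, which holds GLI proteins back, was at 13.7, 15.7, 15.6 and 18.2 CPM in HT55 and 13.3, 11.9, 11.7 and 13.1 CPM in SW948 (log2 difference 0.33 ± 0.10 SE, edgeR adjusted p = 0.00387), a difference no longer called on plain library totals. KIF7, a ciliary regulator of GLI proteins, was higher in SW948, at 0.827, 1.12, 0.467 and 1.43 CPM in HT55 and 10.1, 9.55, 8.72 and 9.75 CPM in SW948 (log2 difference -3.31 ± 0.21 SE, edgeR adjusted p = 1.75e-13). The co-receptor CDON was as well, at 7.32, 7.09, 6.89 and 7.005 CPM in HT55 and 15.9, 18.2, 18.8 and 15.8 CPM in SW948 (log2 difference -1.27 ± 0.11 SE, edgeR adjusted p = 6.71e-11). In all, 5 of 8 tested genes were higher in HT55 and 3 in SW948, 3 and 2 by at least 2-fold.

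Enzymes of sterol synthesis turn acetyl-CoA into cholesterol, and their genes are raised together by SREBP2 when the cell's sterol runs low. Of the 22 enzymes, all tested, 17 passed the test higher in HT55 and 2 in SW948, 8 and 0 by at least 2-fold, with a median of 0.80. Together they held 2120 to 2341 CPM in HT55 and 1465 to 1668 CPM in SW948. The calls were 13 and 3 on plain library totals. FDPS (ENSG00000160752, chromosome 1, 155278539 to 155290457, plus strand, GRCh37), which makes farnesyl diphosphate, was at 261, 260.1, 286 and 257 CPM in HT55 and 74.9, 70.2, 94.7 and 67.8 CPM in SW948 (log2 difference 1.79 ± 0.069 SE, edgeR adjusted p = 1.10e-17). NSDHL, which acts in removing methyl groups from sterols, was at 31.0, 29.6, 35.0 and 32.9 CPM in HT55 and 10.5, 9.65, 11.7 and 10 CPM in SW948 (log2 difference 1.61 ± 0.087 SE, edgeR adjusted p = 1.13e-14). CYP51A1, the human counterpart of the enzyme that azoles inhibit in fungi, was at 13.6, 11.4, 13.1 and 12.3 CPM in HT55 and 5.57, 5.50, 7.01 and 4.58 CPM in SW948 (log2 difference 1.16 ± 0.13 SE, edgeR adjusted p = 1.12e-08).

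HMGCS1, an enzyme near the start of the route, differed little, at 74.5, 76.7, 82.8 and 77.3 CPM in HT55 and 68.4, 66.8, 66.8 and 64.5 CPM in SW948 (log2 difference 0.22 ± 0.049 SE, edgeR adjusted p = 1.97e-04), and this call was lost on plain library totals and in a fit over the 16 libraries. The exceptions in favour of SW948 were FDFT1 and LSS. FDFT1, squalene synthase, was at 162, 163, 172 and 170.1 CPM in HT55 and 254, 248, 289.6 and 247 CPM in SW948 (log2 difference -0.64 ± 0.048 SE, edgeR adjusted p = 8.64e-12), and its log2 difference without SW948 replicate 3 was -0.58. LSS, lanosterol synthase, was at 50.8, 45.7, 52.6 and 41.9 CPM in HT55 and 52.2, 51.7, 70.02 and 53.3 CPM in SW948 (log2 difference -0.25 ± 0.085 SE, edgeR adjusted p = 0.00938). HT55 replicate 3 overlapped with SW948 in LSS, SW948 replicate 3 was the highest library, and without that library its log2 difference was -0.13, edgeR adjusted p = 0.0479. The LSS call was lost without HT55 replicate 4 and in the fit over the 16 libraries. Over the list the counts became 16 and 2 without replicate 3, with a median of 0.85.

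Genes that sense and move sterol gave 15 higher in HT55 and 6 in SW948 of 23 tested, 4 and 3 by at least 2-fold (median 0.38). INSIG1, which retains the SREBP complex in the endoplasmic reticulum and is itself an SREBP target, was at 136, 129, 152 and 126 CPM in HT55 and 35.9, 37.5, 54.8 and 36.3 CPM in SW948 (log2 difference 1.73 ± 0.090 SE, edgeR adjusted p = 4.88e-15). SREBF2, which encodes SREBP2, was at 279, 259, 288 and 264 CPM in HT55 and 266, 268, 305 and 269 CPM in SW948 (log2 difference -0.021 ± 0.047 SE, edgeR adjusted p = 0.681). The libraries overlapped, and SREBF2 did not pass. Replicate 3 was the highest SW948 library for INSIG1 and SREBF2, and without it their log2 differences were 1.89 and 0.026. SOAT1, which esterifies cholesterol for storage, was higher in SW948, at 2.60, 2.59, 2.34 and 3.63 CPM in HT55 and 19.8, 21.4, 19.99 and 20.2 CPM in SW948 (log2 difference -2.87 ± 0.13 SE, edgeR adjusted p = 2.28e-16). APOE, which carries lipid out of cells, was low in both and higher in SW948, at 0.709, 0.337, 0.350 and 0.389 CPM in HT55 and 1.06, 1.56, 2.65 and 1.10 CPM in SW948 (log2 difference -1.79 ± 0.40 SE, edgeR adjusted p = 2.46e-04).

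Of 18 fatty acid synthesis genes tested, 12 were higher in HT55 and 5 in SW948, 7 and 5 by at least 2-fold, with a median of 0.64. FASN, fatty acid synthase, was at 466, 407, 480.1 and 414 CPM in HT55 and 154, 169, 199 and 167 CPM in SW948 (log2 difference 1.36 ± 0.062 SE, edgeR adjusted p = 4.05e-16). SCD, which introduces a double bond, was at 791, 736, 745 and 724 CPM in HT55 and 279, 297, 361 and 273 CPM in SW948 (log2 difference 1.31 ± 0.062 SE, edgeR adjusted p = 7.27e-16). ACSS2, which activates acetate, was at 366, 348, 426 and 370.2 CPM in HT55 and 73.8, 69.5, 74.0 and 69.1 CPM in SW948 (log2 difference 2.40 ± 0.055 SE, edgeR adjusted p = 3.61e-22). FADS2, a desaturase, was at 7.80, 8.997, 10.3 and 10.4 CPM in HT55 and 0.884, 1.25, 1.42 and 0.593 CPM in SW948 (log2 difference 3.18 ± 0.21 SE, edgeR adjusted p = 3.69e-13). ACSL4, which prefers arachidonate, was higher in SW948, at 6.50, 4.27, 5.61 and 5.06 CPM in HT55 and 45.4, 50.1, 48.8 and 42.3 CPM in SW948 (log2 difference -3.12 ± 0.10 SE, edgeR adjusted p = 5.07e-19). FADS3, of the desaturase family, was as well, at 3.66, 4.61, 4.20 and 4.28 CPM in HT55 and 22.8, 19.4, 24.6 and 17.0 CPM in SW948 (log2 difference -2.32 ± 0.14 SE, edgeR adjusted p = 8.51e-14).

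Proliferation genes were higher in HT55. Of 28 G2/M genes, 23 were higher in HT55 and 3 in SW948, 12 and 0 by at least 2-fold, with a median of 0.92. MKI67 (ENSG00000148773, chromosome 10, 129894923 to 129924687, minus strand, GRCh37), which coats mitotic chromosomes and is the usual proliferation marker, was at 461, 442, 454 and 465 CPM in HT55 and 67.8, 79.9, 73.5 and 72.3 CPM in SW948 (log2 difference 2.64 ± 0.047 SE, edgeR adjusted p = 3.20e-24). BUB1B, a spindle checkpoint kinase, was at 100.2, 101, 110.1 and 101 CPM in HT55 and 31.7, 38.8, 30.7 and 30.0 CPM in SW948 (log2 difference 1.66 ± 0.065 SE, edgeR adjusted p = 1.57e-17). CCNB1, cyclin B1, was at 127, 125, 137 and 137 CPM in HT55 and 126, 129, 113 and 126 CPM in SW948 (log2 difference 0.094 ± 0.049 SE, edgeR adjusted p = 0.0763). Its libraries overlapped, and it did not pass. The 3 that were higher in SW948 included TTK, a checkpoint kinase, at 30.8, 35.1, 35.2 and 33.5 CPM in HT55 and 56.3, 55.7, 51.8 and 58.1 CPM in SW948 (log2 difference -0.72 ± 0.062 SE, edgeR adjusted p = 7.89e-11). CENPE, a kinesin of the kinetochore, was at 30.0, 31.2, 29.4 and 30.0 CPM in HT55 and 47.1, 51.6, 37.2 and 50.9 CPM in SW948 (log2 difference -0.63 ± 0.083 SE, edgeR adjusted p = 1.63e-07).

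**Figure D3:**
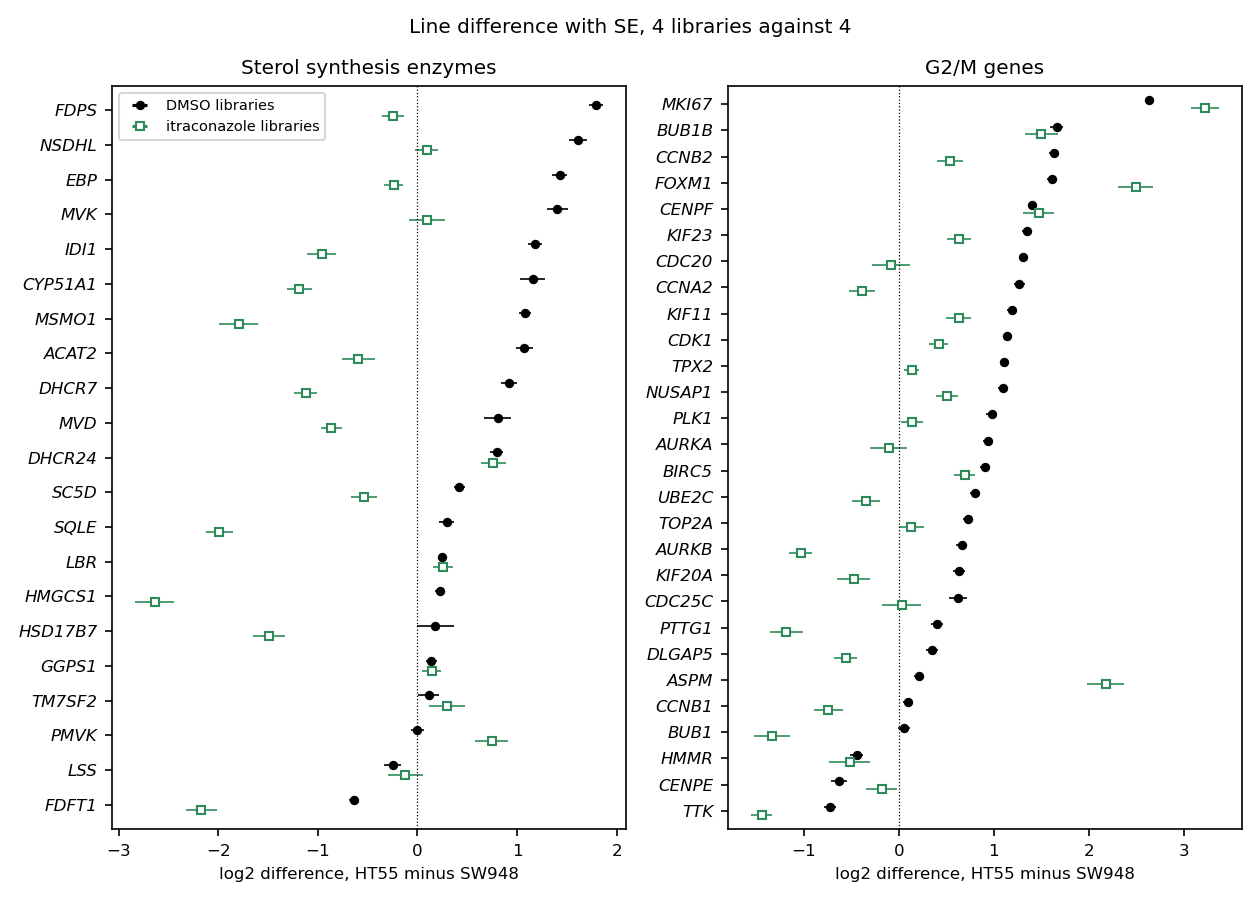
Log2 difference between HT55 and SW948 with its SE (edgeR, 4 libraries against 4) for 21 of the 22 sterol synthesis enzymes, left, and the 28 G2/M genes, right. Black circles are the DMSO libraries and green squares the itraconazole libraries. Black circles lie mostly right of 0 in both panels, while green squares of the sterol enzymes lie mostly left of 0 (list median -0.56) and those of G2/M genes on both sides (median 0.081).

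Replication genes gave 27 higher in HT55 and 4 in SW948 of 34 tested, 9 and 0 by at least 2-fold (median 0.69). MCM2, a subunit of the replicative helicase, was at 196, 182, 199 and 189 CPM in HT55 and 83.6, 75.2, 94.9 and 78.1 CPM in SW948 (log2 difference 1.21 ± 0.056 SE, edgeR adjusted p = 4.72e-16). PCNA, the sliding clamp, was at 151, 157, 164 and 148 CPM in HT55 and 78.0, 81.4, 94.3 and 77.9 CPM in SW948 (log2 difference 0.90 ± 0.055 SE, edgeR adjusted p = 1.02e-13). GINS2, of the complex that completes the helicase, had the widest difference, at 84.8, 84.2, 84.6 and 78.6 CPM in HT55 and 18.0, 14.8, 19.5 and 17.2 CPM in SW948 (log2 difference 2.25 ± 0.067 SE, edgeR adjusted p = 7.33e-20). The licensing factor CDT1 was next, at 90.4, 98.9, 98.8 and 91.2 CPM in HT55 and 24.9, 25.02, 27.2 and 26.6 CPM in SW948 (log2 difference 1.87 ± 0.057 SE, edgeR adjusted p = 1.16e-19). Another GINS subunit, GINS4, was higher in SW948, at 7.92, 7.31, 9.81 and 8.04 CPM in HT55 and 15.7, 16.2, 15.4 and 13.9 CPM in SW948 (log2 difference -0.89 ± 0.11 SE, edgeR adjusted p = 6.53e-08). GMNN, whose product geminin restrains CDT1, was too, at 25.4, 26.5, 25.6 and 22.7 CPM in HT55 and 43.9, 43.8, 49.4 and 39.3 CPM in SW948 (log2 difference -0.81 ± 0.075 SE, edgeR adjusted p = 3.86e-10).

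These genes are known to be driven by E2F factors at the start of S phase, and their promoters were searched for TTTCGCGC or TTTGGCGC on both strands, letters of the E2F site that can overlap each other. Of 35 replication genes, 30 had an entry in the RefSeq promoter table (GRCh38.p14), and 9 of these held a match within 250 bases before and 50 after the start, against 2.09% of the 9560 promoters of tested protein-coding genes. The 9 were MCM2, MCM3, MCM6, MCM7, CDC6, GINS1, POLA1, POLE and POLE2. A match is a run of letters and not a bound site. The 3 shown, each 250 bases before the start with matches in capitals, are those with a match in that stretch and a difference that passed: MCM6 (chr2:135876444-135876693, minus strand; log2 difference 0.85 ± 0.038 SE), POLA1 (chrX:24693668-24693917, plus strand; 0.89 ± 0.057 SE) and POLE (chr12:132687343-132687592, minus strand; 1.03 ± 0.053 SE).
MCM6: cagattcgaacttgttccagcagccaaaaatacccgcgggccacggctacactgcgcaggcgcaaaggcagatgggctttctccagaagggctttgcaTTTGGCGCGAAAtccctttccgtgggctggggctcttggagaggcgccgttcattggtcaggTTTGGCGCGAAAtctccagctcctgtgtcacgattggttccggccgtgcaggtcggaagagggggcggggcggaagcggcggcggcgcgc
POLA1: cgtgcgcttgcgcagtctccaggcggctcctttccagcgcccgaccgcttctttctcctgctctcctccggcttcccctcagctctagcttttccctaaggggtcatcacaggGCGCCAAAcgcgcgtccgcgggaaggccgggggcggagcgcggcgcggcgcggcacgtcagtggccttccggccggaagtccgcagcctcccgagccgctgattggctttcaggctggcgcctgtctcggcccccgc
POLE: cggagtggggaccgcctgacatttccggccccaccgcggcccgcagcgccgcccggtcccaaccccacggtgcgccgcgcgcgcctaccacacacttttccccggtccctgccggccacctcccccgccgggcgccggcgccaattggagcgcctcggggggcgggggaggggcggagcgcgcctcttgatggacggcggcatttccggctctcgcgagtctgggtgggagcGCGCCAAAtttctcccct

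MCM7 held a match in that stretch as well, yet its libraries overlapped and its log2 difference was -0.0035 ± 0.038 (SE; edgeR adjusted p = 0.935). These 4 genes were named for their promoters.

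Cyclins, CDKs and E2F genes of G1 gave 14 higher in HT55 and 6 in SW948 of 23 tested, 6 and 1 by at least 2-fold (median 0.45). CCND2, cyclin D2, was at 267, 259, 254 and 278 CPM in HT55 and 67.0, 83.0, 65.2 and 74.6 CPM in SW948 (log2 difference 1.87 ± 0.057 SE, edgeR adjusted p = 1.06e-19). MYBL2, an E2F target that drives mitotic genes, was at 283, 276, 293 and 278 CPM in HT55 and 99.1, 96.4, 109.9 and 95.6 CPM in SW948 (log2 difference 1.49 ± 0.046 SE, edgeR adjusted p = 1.31e-19). RB1, which binds E2F factors, was at 169, 163, 171 and 165 CPM in HT55 and 193, 212, 194 and 191 CPM in SW948 (log2 difference -0.24 ± 0.043 SE, edgeR adjusted p = 1.59e-05). E2F3, an activating E2F, was at 35.0, 34.4, 34.0 and 31.9 CPM in HT55 and 54.7, 57.2, 54.0 and 54.7 CPM in SW948 (log2 difference -0.70 ± 0.057 SE, edgeR adjusted p = 3.22e-11). E2F5, a repressive family member, was at 15.9, 16.1, 14.9 and 15.8 CPM in HT55 and 45.3, 48.6, 48.6 and 49.5 CPM in SW948 (log2 difference -1.61 ± 0.069 SE, edgeR adjusted p = 1.02e-16).

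The CDK inhibitors held a wide contrast. CDKN2A (ENSG00000147889, chromosome 9, 21967751 to 21995300, minus strand, GRCh37), which encodes p16 and ARF, was at 1.30, 0.562, 1.05 and 0.908 CPM in HT55 and 31.2, 27.4, 36.6 and 29.5 CPM in SW948 (log2 difference -5.02 ± 0.17 SE, edgeR adjusted p = 9.74e-19). Its neighbour CDKN2B, which encodes p15, was at 1.54, 2.02, 3.504 and 2.08 CPM in HT55 and 41.0, 40.0, 36.5 and 40.6 CPM in SW948 (log2 difference -4.10 ± 0.13 SE, edgeR adjusted p = 2.39e-19). HT55 thus had only traces of both RNAs. CDKN1C, which encodes p57, was at 9.57, 7.99, 9.93 and 8.69 CPM in HT55 and 3.01, 2.59, 2.56 and 2.03 CPM in SW948 (log2 difference 1.83 ± 0.16 SE, edgeR adjusted p = 9.02e-11). CDKN2D, which encodes p19, was at 14.6, 15.3, 16.9 and 14.8 CPM in HT55 and 4.16, 5.19, 4.36 and 3.47 CPM in SW948 (log2 difference 1.85 ± 0.13 SE, edgeR adjusted p = 9.65e-13). CDKN1A, which encodes p21, was at 55.9, 57.02, 61.5 and 60.2 CPM in HT55 and 53.2, 50.0, 51.4 and 55.7 CPM in SW948 (log2 difference 0.16 ± 0.055 SE, edgeR adjusted p = 0.0122), a difference of the other sign on plain library totals.

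Targets of p53 were split, 13 higher in HT55 and 11 in SW948 of 25 tested, but those at 2-fold or more were 2 and 7. On plain library totals the calls were 7 and 12, and in the fit over the 16 libraries 8 and 10. MDM2, the ligase that degrades p53, was at 70.2, 66.6, 63.4 and 69.7 CPM in HT55 and 67.1, 75.7, 63.6 and 71.7 CPM in SW948 (log2 difference -0.043 ± 0.057 SE, edgeR adjusted p = 0.484), with overlapping libraries. GDF15, a stress cytokine, was at 164, 162, 158 and 156 CPM in HT55 and 481, 449.6, 629 and 472 CPM in SW948 (log2 difference -1.67 ± 0.072 SE, edgeR adjusted p = 1.30e-16). PHLDA3, an inhibitor of AKT, was at 0.591, 0, 0.234 and 0.130 CPM in HT55 and 13.4, 10.5, 16.2 and 9.92 CPM in SW948 (log2 difference -5.64 ± 0.34 SE, edgeR adjusted p = 6.99e-14). SPATA18 was at 7.34, 8.30, 8.34 and 7.97 CPM in SW948 with no count in HT55, at least 89.3-fold higher. DDB2, a DNA damage sensor, was at 39.5, 36.7, 38.7 and 36.97 CPM in HT55 and 9.82, 8.10, 8.72 and 9.24 CPM in SW948 (log2 difference 2.07 ± 0.082 SE, edgeR adjusted p = 1.81e-17). SESN1, a stress-induced inhibitor of mTORC1, was at 54.6, 49.8, 50.6 and 55.5 CPM in HT55 and 18.1, 19.0, 16.8 and 19.5 CPM in SW948 (log2 difference 1.52 ± 0.069 SE, edgeR adjusted p = 3.18e-16).

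Drug handling genes differed in both directions, as did all tested genes (41.6% called higher in HT55 and 42.6% in SW948). Of 10 efflux pumps tested, 3 were higher in HT55 and 6 in SW948, 2 and 5 by at least 2-fold, with a median of -1.12. ABCB1 (ENSG00000085563, chromosome 7, 87132333 to 87342639, minus strand, GRCh37), the P-glycoprotein that expels many drugs, was at 5.55, 7.65, 7.12 and 8.82 CPM in HT55 and 176, 191, 189 and 189.6 CPM in SW948 (log2 difference -4.68 ± 0.076 SE, edgeR adjusted p = 3.98e-25). ABCG2, the breast cancer resistance protein, was at 4.69, 3.43, 3.98 and 2.71 CPM in SW948 with no count in HT55, at least 41.4-fold higher. ABCC4, a nucleotide exporter chosen after its values were seen, was at 7.56, 7.87, 8.06 and 8.69 CPM in HT55 and 95.7, 99.1, 88.7 and 99.2 CPM in SW948 (log2 difference -3.57 ± 0.074 SE, edgeR adjusted p = 4.56e-23). HT55 instead carried ABCC2, which exports drug conjugates and was at 36.3, 36.7, 37.7 and 34.0 CPM in HT55 and 0.265, 0.208, 0.190 and 0.254 CPM in SW948 (log2 difference 7.21 ± 0.16 SE, edgeR adjusted p = 2.92e-22). ABCC6 was at 27.9, 22.7, 24.6 and 23.1 CPM in HT55 and 8.67, 10.5, 8.24 and 9.83 CPM in SW948 (log2 difference 1.40 ± 0.10 SE, edgeR adjusted p = 2.20e-12). ABCC3, also an exporter of conjugates, was nearer, at 172, 174, 160.3 and 176 CPM in HT55 and 245, 235, 253 and 227 CPM in SW948 (log2 difference -0.49 ± 0.044 SE, edgeR adjusted p = 1.94e-10).

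Uptake transporters gave 5 higher in HT55 and 7 in SW948 of 12 tested, 4 and 2 by at least 2-fold (median -0.35). SLC29A1, which imports nucleoside drugs, was at 224, 225, 254 and 229 CPM in HT55 and 87.7, 94.7, 96.6 and 90.1 CPM in SW948 (log2 difference 1.34 ± 0.048 SE, edgeR adjusted p = 2.90e-18). SLC15A1, a peptide carrier, was at 8.98, 9.90, 8.88 and 12.8 CPM in HT55 and 0.973, 0.519, 0.947 and 0.932 CPM in SW948 (log2 difference 3.54 ± 0.21 SE, edgeR adjusted p = 5.87e-14). SLCO3A1 was at 8.86, 8.55, 8.41 and 7.52 CPM in HT55 against 2 counts. SLCO1B3, a carrier of the liver that some colorectal tumours express, was at 2.01, 1.46, 2.57 and 2.59 CPM in HT55 and 40.5, 39.1, 43.3 and 38.8 CPM in SW948 (log2 difference -4.23 ± 0.12 SE, edgeR adjusted p = 2.91e-20). SLCO4A1, of the same family, was at 59.4, 63.4, 61.9 and 69.0 CPM in HT55 and 141, 128, 163 and 139 CPM in SW948 (log2 difference -1.17 ± 0.063 SE, edgeR adjusted p = 9.22e-15).

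In phase I metabolism 14 genes were higher in HT55 and 19 in SW948 of 36 tested, 9 and 13 by at least 2-fold (median -0.36). CYP2W1, a cytochrome found in colorectal tumours, was at 371, 372, 384 and 332 CPM in HT55 and 0.442, 0.208, 0.853 and 1.10 CPM in SW948 (log2 difference 9.06 ± 0.11 SE, edgeR adjusted p = 7.88e-27). CES1, a carboxylesterase, was at 14.5, 13.2, 14.9 and 16.5 CPM in HT55 with no count in SW948, at least 212-fold higher, and CYP1A1, which aryl hydrocarbons induce, at 2.24, 3.26, 3.15 and 2.85 CPM in HT55 and 0.796, 1.25, 1.04 and 0.509 CPM in SW948 (log2 difference 1.70 ± 0.26 SE, edgeR adjusted p = 2.16e-06). AKR1B10, an aldo-keto reductase, was at 0.591, 0.112, 0.234 and 0.130 CPM in HT55 and 6.81, 9.55, 9.29 and 6.27 CPM in SW948 (log2 difference -4.82 ± 0.32 SE, edgeR adjusted p = 7.00e-13). ADH1C, an alcohol dehydrogenase, was at 1.15, 3.43, 1.71 and 1.44 CPM in SW948 with no count in HT55. CYP3A4, the main azole-sensitive drug oxidase of liver, had no count in the 8 libraries, which allows at most 3 counts in each line. Its relative CYP3A5 was at 22.0, 21.6, 19.7 and 25.6 CPM in HT55 and 30.3, 27.0, 24.9 and 29.4 CPM in SW948 (log2 difference -0.34 ± 0.085 SE, edgeR adjusted p = 8.15e-04), with overlapping libraries and a call lost in the fit over the 16 libraries. DPYD, which breaks down fluorouracil, had 3 counts in HT55 and 1 in SW948.

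Phase II genes gave 11 and 13 of 26 tested, 8 each by at least 2-fold (median -0.25). Glucuronosyltransferases of the UGT1A locus were higher in SW948 in each of the 4 tested (UGT1A1, UGT1A6, UGT1A8 and UGT1A10). UGT1A10 was at 0.236, 0, 0.467 and 0.389 CPM in HT55 and 86.6, 85.8, 96.3 and 79.0 CPM in SW948 (log2 difference -8.27 ± 0.17 SE, edgeR adjusted p = 5.06e-23), and UGT1A8 at 12.7, 11.3, 14.2 and 10.4 CPM against 1 count. These transcripts share their last exons, so reads there could not be assigned and the split between them is uncertain. UGT2B7 had 3 counts in HT55 and 0 in SW948. GSTP1, the π-class glutathione transferase, was at 245, 255, 278 and 246 CPM in HT55 and 827, 734, 832 and 829 CPM in SW948 (log2 difference -1.65 ± 0.050 SE, edgeR adjusted p = 7.57e-20). SULT1A1, a phenol sulphotransferase with near-identical relatives, was at 25.5, 24.1, 27.7 and 27.2 CPM in HT55 and 1.33, 0.623, 1.04 and 1.02 CPM in SW948 (log2 difference 4.67 ± 0.15 SE, edgeR adjusted p = 2.57e-19). GGT1, which cleaves glutathione, was at 3.07, 3.71, 3.39 and 4.28 CPM in HT55 and 0.177, 0.311, 0.379 and 0.254 CPM in SW948 (log2 difference 3.64 ± 0.30 SE, edgeR adjusted p = 3.69e-11). GSTT1, a glutathione transferase named after its values were seen, was among the 35 genes of SW948, at 26.6, 24.1, 31.2 and 27.6 CPM with no count in HT55.

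Among the sensors that induce these enzymes, 4 were higher in HT55 and 5 in SW948 of 13 tested (4 and 8 on plain library totals). AHR, the aryl hydrocarbon receptor, was at 67.8, 63.5, 66.1 and 68.4 CPM in HT55 and 298, 356, 309 and 302 CPM in SW948 (log2 difference -2.25 ± 0.055 SE, edgeR adjusted p = 1.49e-21). VDR, the vitamin D receptor, was at 147, 145, 154 and 153 CPM in HT55 and 74.7, 73.0, 74.9 and 70.7 CPM in SW948 (log2 difference 1.03 ± 0.044 SE, edgeR adjusted p = 9.40e-17). NR1I2, which encodes the xenobiotic receptor PXR, was at 6.14, 7.31, 4.79 and 6.23 CPM in HT55 and 9.11, 8.62, 7.49 and 9.75 CPM in SW948 (log2 difference -0.52 ± 0.14 SE, edgeR adjusted p = 0.00161). PPARGC1A, a mitochondrial co-activator, was at 13.0, 20.1, 16.6 and 16.7 CPM in HT55 and 1.77, 1.04, 1.99 and 1.70 CPM in SW948 (log2 difference 3.33 ± 0.18 SE, edgeR adjusted p = 6.32e-15). KEAP1, which restrains NRF2, was at 138, 135, 143 and 141 CPM in HT55 and 55.2, 53.9, 61.4 and 54.2 CPM in SW948 (log2 difference 1.31 ± 0.049 SE, edgeR adjusted p = 6.67e-18). RXRB, a shared partner of these receptors, was at 21.3, 25.9, 25.9 and 27.5 CPM in HT55 and 57.5, 54.8, 55.9 and 62.0 CPM in SW948 (log2 difference -1.20 ± 0.071 SE, edgeR adjusted p = 6.57e-14).

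**Figure D4:**
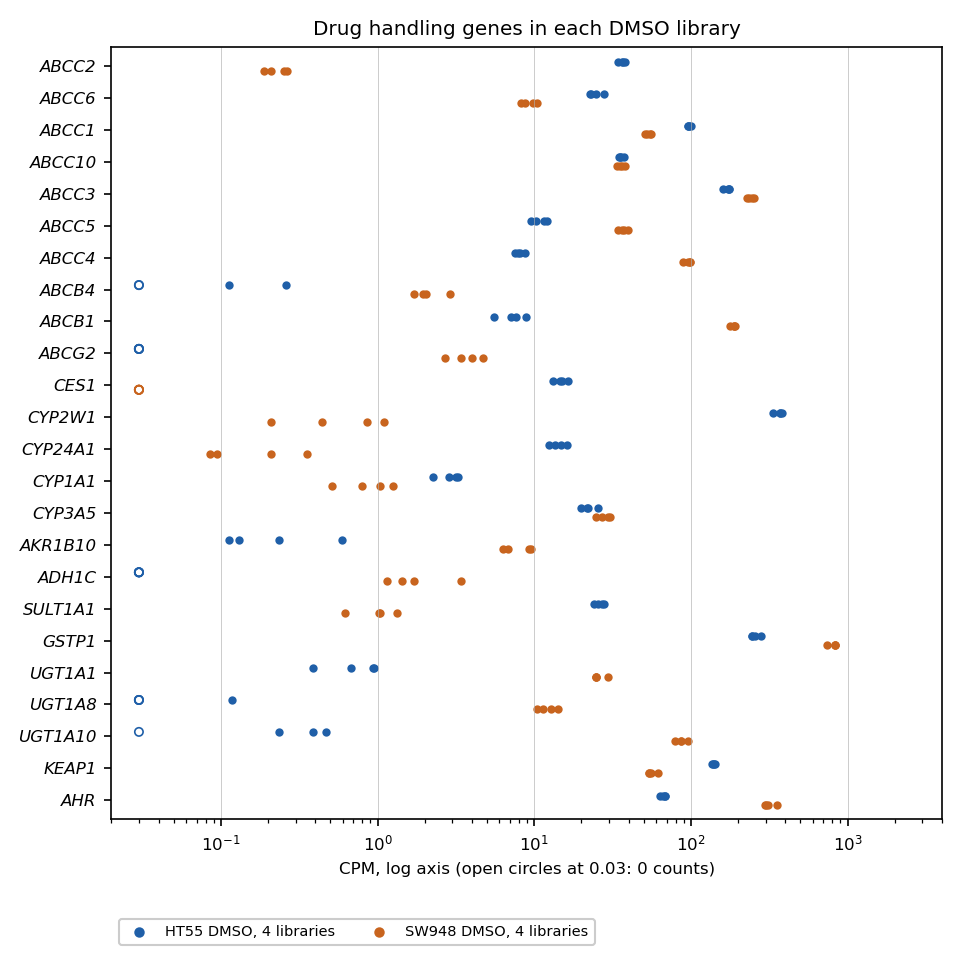
CPM of 24 drug handling genes on a log axis, 1 point per library, with efflux pumps first, then phase I, phase II and sensor genes. Blue points are HT55 DMSO and orange points SW948 DMSO, with open circles for 0 counts. ABCC2, CES1 and CYP2W1 lie far to the right in HT55, ABCB1, ABCG2, UGT1A8 and UGT1A10 in SW948, and the lines meet at ABCC10 and CYP3A5.

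Of the 6 ligands of the EGF receptor family that were tested, 5 were higher in SW948. Over 9 receptors and ligands, 6 were higher in SW948 and 3 in HT55, 5 and 1 by at least 2-fold (median -1.40). EREG, epiregulin, was at 33.4, 32.7, 26.5 and 31.8 CPM in HT55 and 336, 329, 272 and 321 CPM in SW948 (log2 difference -3.34 ± 0.070 SE, edgeR adjusted p = 6.84e-23). AREG, amphiregulin, was at 2.72, 2.59, 2.22 and 2.59 CPM in HT55 and 12.2, 12.5, 13.3 and 13.98 CPM in SW948 (log2 difference -2.36 ± 0.14 SE, edgeR adjusted p = 7.13e-14). BTC, betacellulin, was at 2.60, 3.15, 3.62 and 3.76 CPM in HT55 and 28.8, 29.9, 25.7 and 28.7 CPM in SW948 (log2 difference -3.11 ± 0.12 SE, edgeR adjusted p = 7.50e-18). The receptors were nearer, with EGFR higher in SW948 and ERBB3 higher in HT55. EGFR was at 136, 122, 108 and 122 CPM in HT55 and 181, 202, 191 and 205 CPM in SW948 (log2 difference -0.67 ± 0.055 SE, edgeR adjusted p = 3.88e-11). ERBB3 was at 811, 753, 793 and 784 CPM in HT55 and 425, 424, 401 and 437 CPM in SW948 (log2 difference 0.90 ± 0.041 SE, edgeR adjusted p = 4.24e-16). EGF, the exception among the ligands, was low in both, at 1.77, 3.37, 1.64 and 2.98 CPM in HT55 and 1.06, 0.415, 0.474 and 0.678 CPM in SW948 (log2 difference 1.85 ± 0.32 SE, edgeR adjusted p = 1.22e-05).

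Of 28 adhesion genes tested, 11 were higher in HT55 and 15 in SW948 (6 and 17 on plain library totals), 2 and 5 by at least 2-fold (median -0.12). The widest difference was in CLDN2, the pore-forming claudin of leaky epithelia, at 0.827, 0.675, 0.701 and 0.649 CPM in HT55 and 109, 103, 139 and 108 CPM in SW948 (log2 difference -7.30 ± 0.16 SE, edgeR adjusted p = 1.21e-22). CDH1, E-cadherin, was at 792, 726, 754 and 756 CPM in HT55 and 578, 592, 565 and 595 CPM in SW948 (log2 difference 0.38 ± 0.041 SE, edgeR adjusted p = 5.34e-09). CDH3, P-cadherin, was at 253, 248, 262 and 269 CPM in HT55 and 117, 116, 123 and 119.8 CPM in SW948 (log2 difference 1.12 ± 0.042 SE, edgeR adjusted p = 6.36e-18). MARVELD2, of tricellular junctions, was at 136, 126, 119.6 and 129 CPM in HT55 and 61.5, 64.3, 54.2 and 66.6 CPM in SW948 (log2 difference 1.05 ± 0.057 SE, edgeR adjusted p = 1.14e-14). CLDN12, a further claudin, was higher in SW948, at 49.5, 56.8, 46.7 and 49.0 CPM in HT55 and 171, 168, 151 and 170.3 CPM in SW948 (log2 difference -1.71 ± 0.057 SE, edgeR adjusted p = 7.73e-19), and its log2 difference without SW948 replicate 3 was -1.75.

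Among keratins KRT23 had the widest difference in favour of HT55, at 325, 324, 335 and 319 CPM in HT55 and 72.4, 67.3, 69.8 and 68.2 CPM in SW948 (log2 difference 2.23 ± 0.042 SE, edgeR adjusted p = 1.00e-23). KRT8, the partner of KRT18, was at 2889.8, 2945, 3011 and 2943 CPM in HT55 and 1417, 1331, 1479 and 1473 CPM in SW948 (log2 difference 1.05 ± 0.044 SE, edgeR adjusted p = 6.21e-17). KRT7, a keratin of other ducts and glands, was low in both, at 0.591, 0.225, 0.350 and 0.649 CPM in HT55 and 1.59, 1.97, 1.33 and 1.61 CPM in SW948 (log2 difference -1.83 ± 0.34 SE, edgeR adjusted p = 2.77e-05). KRT8 and KRT18 have many pseudogenes, whose reads were set aside when they aligned more than once.

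Of 15 mesenchymal genes, 10 fell below the filter. VIM, vimentin, had 1, 0, 0 and 0 counts in the HT55 libraries and 4, 0, 0 and 1 in SW948 (exact permutation test, two-sided, p = 0.714), and ZEB1 had 0 and 6, 4, 1 and 2 (p = 0.0286 by the same exact test, adjusted p = 0.0629). Of the 5 tested, 4 were higher in HT55, among them TGFBI, a secreted matrix protein named after its values were seen, at 2357, 2340.1, 2424 and 2389 CPM in HT55 and 647, 612, 599 and 643 CPM in SW948 (log2 difference 1.93 ± 0.043 SE, edgeR adjusted p = 1.78e-22). TWIST1, a factor of mesenchymal cells, was at 8.51, 5.96, 8.64 and 6.10 CPM with no count in SW948, at least 106-fold higher. S100A4, a calcium-binding protein, was at 30.8, 29.0, 25.5 and 29.2 CPM in HT55 and 4.78, 5.61, 10.1 and 3.98 CPM in SW948 (log2 difference 2.24 ± 0.16 SE, edgeR adjusted p = 1.65e-12). FN1, fibronectin, was higher in SW948, at 0.118, 0.112, 0.467 and 0.259 CPM in HT55 and 4.33, 4.46, 3.70 and 3.56 CPM in SW948 (log2 difference -3.999 ± 0.33 SE, edgeR adjusted p = 4.08e-11).

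Antigen presentation genes of MHC class I were higher in HT55, 13 against 2 of 15 tested and 7 against 0 by at least 2-fold, with a median of 0.92. B2M, the shared light chain, was at 1437, 1480.3, 1442 and 1527 CPM in HT55 and 444, 427, 433 and 418 CPM in SW948 (log2 difference 1.77 ± 0.042 SE, edgeR adjusted p = 5.57e-22). PSMB10, an immunoproteasome subunit, was at 46.2, 52.3, 49.3 and 50.7 CPM in HT55 and 8.49, 6.64, 9.29 and 8.73 CPM in SW948 (log2 difference 2.57 ± 0.086 SE, edgeR adjusted p = 6.68e-19). HLA-B, a heavy chain, was at 328, 344, 317 and 343 CPM in HT55 and 83.4, 70.1, 81.8 and 79.5 CPM in SW948 (log2 difference 2.08 ± 0.050 SE, edgeR adjusted p = 8.35e-22). HLA-E, a further heavy chain gene, was among the exceptions, at 114, 114, 117 and 115 CPM in HT55 and 176, 149, 157 and 176 CPM in SW948 (log2 difference -0.52 ± 0.051 SE, edgeR adjusted p = 9.04e-10). HLA genes share sequence and differ between people from the reference, so their values are uncertain. Of the class II genes, HLA-DRA had no count, and CD74 had 13 counts in HT55 and 0 in SW948.

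Differences also lay in runs along chromosomes. Over the 41 chromosome arms with at least 25 tested genes, the median log2 difference was within 0.25 of 0 in 18. The highest medians were 0.81 on 16p (314 genes, 76.4% called higher in HT55), 0.65 on Xq (220 genes, 69.6%), 0.59 on 15q (387 genes, 65.6%) and 0.41 on 16q (256 genes, 65.6%). The lowest were -0.86 on 20p (112 genes, 75.9% called higher in SW948), -0.85 on 8p (150 genes, 80.7%), -0.57 on 11q (497 genes, 69.4%) and -0.56 on 6p (378 genes, 61.6%). Without SW948 replicate 3 these 8 medians became 0.81, 0.64, 0.57, 0.43, -0.89, -0.87, -0.57 and -0.56. The order at both ends was thus the same without that library.

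When tested genes were taken in 479 consecutive groups of 25 along the arms (GRCh37), the highest median was 1.14, on chromosome 16 from 731670 to 1662073 (22 genes called higher in HT55 and 3 in SW948). Next came chromosome 1 from 92764616 to 96913874 (median 1.10) and chromosome 19 from 49660998 to 50437192 (median 1.07, 23 against 2). The lowest was -1.25, on chromosome 20 from 17922241 to 23353699 (3 higher in HT55 and 22 in SW948), followed by chromosome 3 from 101399935 to 113348422 (-1.23, 1 against 24) and chromosome 20 from 61294371 to 62587769 (-1.21, 3 against 22). The long arm of chromosome 20 as a whole had a median of -0.046.

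**Figure D5:**
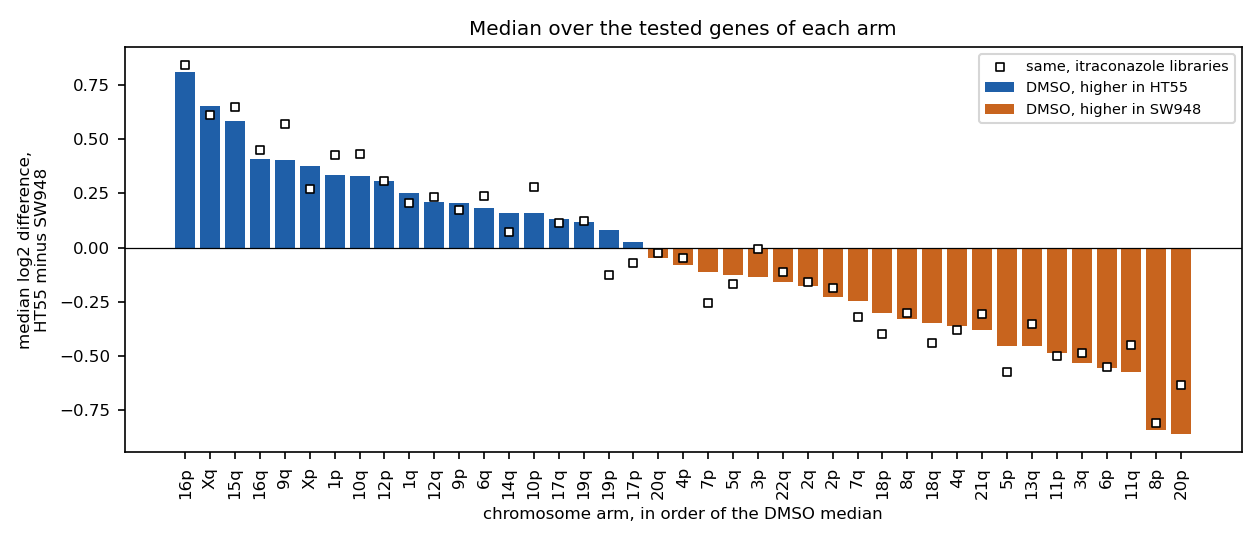
Median log2 difference between HT55 and SW948 over the tested genes of each of 41 chromosome arms, as bars for the DMSO libraries (blue above 0, orange below) and open squares for the itraconazole libraries. Bars run from 0.81 on 16p to -0.86 on 20p, and the squares of those arms lie at 0.84 and -0.64.

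The itraconazole libraries of the lines were then compared in a separate fit. Of 12353 genes tested there, 9465 (76.6%) passed, 4797 higher in HT55 and 4668 higher in SW948. Of the 10796 genes called between the DMSO libraries, 10214 could be tested, and 7079 (69.3%) were called in the same direction, 972 (9.52%) in the opposite direction and 2163 in neither. For the genes that differed by at least 2-fold in DMSO the same direction was seen in 86.7% (3194 of 3682) and the opposite in 2.42%. Without SW948 replicate 3 the first share was again 69.3%. Both fits concern the same 2 lines, so this is no check on other cultures of them.

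With the drug, Wnt targets gave 18 higher in HT55 and 5 in SW948 of 25 tested (median 1.34), with AXIN2 at 3.20 ± 0.20 (SE; edgeR adjusted p = 3.55e-08). Replication genes gave 27 against 2 of 34 (median 1.23). G2/M genes gave 11 against 10 of 28 (median 0.081), and p53 targets gave 6 against 14 of 25 (median -0.65). CDK inhibitor genes gave 1 against 5 of 8 (5 against 2 in DMSO), and keratins 1 against 4 of 9 (7 against 2 in DMSO). Efflux pumps gave 5 against 4 of 9 (median 0.34), where the DMSO libraries gave 3 against 6 of 10. Among them, ABCB1 and ABCC2 had log2 differences of -3.42 ± 0.34 and 6.55 ± 0.28 (SE; edgeR adjusted p = 1.84e-06 and 1.81e-09).

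Sterol genes changed order. Of the 22 synthesis enzymes, 3 were called higher in HT55 and 13 in SW948 with itraconazole (median -0.56), and of 24 sensing and transport genes 10 and 13. HMGCS1 had a log2 difference of -2.64 ± 0.19 there (SE; means of 139 CPM in HT55 and 867 CPM in SW948) and INSIG1 of -2.65 ± 0.21. The test of the change itself, the interaction of line and drug over the 16 libraries, gave edgeR adjusted p = 6.12e-09 for HMGCS1 and 7.81e-10 for INSIG1.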

How the data were processed

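Total RNA was prepared with RNeasy Micro and TruSeq kits and sequenced as single-end 50 bp reads. According to the submitters' processing notes and the study's methods, the authors aligned reads to hg19 with TopHat and deposited raw HTSeq counts per Ensembl gene, 1 file per library, while their own comparison used DESeq. Strand setting, annotation release and versions are not given in the sources used here. The 5 closing lines of each file stayed out of library sizes. They held reads outside genes (3.96% to 4.85% of reads), ambiguous reads (1.29% to 1.48%) and reads aligned more than once (22.0% to 23.6% in SW948 and 26.3% to 27.1% in HT55).

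Counts were scaled with TMM (factors 0.930 to 0.942 in HT55 and 1.06 to 1.08 in SW948), filtered with filterByExpr and tested with edgeR's quasi-likelihood test, with Benjamini-Hochberg adjustment over all tested genes and 4 DMSO libraries of HT55 against 4 of SW948. Each SE, in the text and the figures, is the absolute log2 difference divided by the square root of that test's F statistic. It does not cover the effect of a single library. For NOTUM and SLC26A3, leaving out SW948 replicate 3 moved the log2 difference by more than this SE. CPM were computed from the same scaled totals. Genes below the filter that the text tests went through a two-sided exact permutation test over 70 assignments, with adjustment over 11 genes. Intervals of ratios are exact at 95%, a floor is 3 counts over the 4 libraries, and both cover counting error only. The steps were tested on counts simulated from the gene means and library sizes of these data. There 200 of 200 changed genes among 12820 were called. The changes were balanced between the lines, spared genes with few counts and left all other genes equal. The simulation thus does not test scaling or calls where most genes differ, as they do here, or where counts are low. Tools were R 4.3.3, edgeR 4.0.16, limma 3.58.1, DESeq2 1.42.0, Python 3.11.15, pandas 2.3.3, scipy 1.17.1 and numpy 2.4.6.

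The members and the 36 gene lists were chosen with earlier results of these data known. Of 799 symbols 791 matched an identifier, and the other 8, among them HOXB7, FCGBP, PRSS2, CD24, ACACA, UHRF1 and PECAM1, were not analysed here. Some genes that the naming rule picks are not reported here. Named were the 12 protein-coding genes with the highest mean CPM among those nearly absent from the other line, the 12 with the widest called difference in each direction among protein-coding genes with a mean of at least 1 CPM in both lines and libraries that do not overlap, and in each list its anchor genes and the 2 called members with the widest difference in each direction. Exceptions are marked in the text. For list members named for the widest difference, the p-values come from the values that chose them. Gene positions are GRCh37 and promoters are RefSeq sequences on GRCh38.p14. A comparison of promoter CpG content between the genes nearly absent from 1 line was void, because 29 of 38 (76.3%) and 24 of 31 (77.4%) had an entry and 80% was needed. Alternatives were other scalings, filters, thresholds and fits, DESeq2's Wald test, a replicate block and leaving out each library. The leave-out alternatives for the genes nearly absent from 1 line, for the itraconazole comparison and for the chromosome arms were chosen after seeing the data.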

Additional observations from a re-analysis of the deposited data

Results flagged for a closer look

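In 428 groups of 4 libraries, 33 (7.71%) had 1 library set apart from the other 3 by most of the group's range, and chance gives about 1 in 20. SW948 replicate 3 and HT55 replicate 3 accounted for 10 of these each. SW948 replicate 3 was the high library, in CPM, for CDX2 (247.8), FDFT1 (289.6), FZD2 (4.074), INSIG1 (54.77), LSS (70.02), NOTUM (3.79), SLC26A3 (15.25), SREBF2 (304.5) and UGT1A1 (29.37), and the low library for CLDN12 (150.9). Without that library the log2 difference of UGT1A1 was -5.03, against -5.10 with it. HT55 replicate 3 was the high library for APCDD1 (557.0), BUB1B (110.1), FDPS (286.1), FZD10 (223.2), NOTUM (1088.1), NR5A2 (0.9343), RNF43 (476.1) and SLC29A1 (254.0), and the low one for CCDC88A (0.8175) and COL1A1 (0.2336). In the remaining SW948 libraries the high values were ALOX5 (17.51) and HOXD3 (3.007) in replicate 1 and RB1 (212.2), SMO (0.2076) and TCF7L1 (1.661) in replicate 2. The low values were ABCB1 (176.4) and POLE (49.26) in replicate 1, GSTP1 (733.9) and SLC15A1 (0.519) in replicate 2 and CD44 (526.1) in replicate 4. In HT55, APOE was high in replicate 1 (0.7089), GREM1 low in replicate 2 (1.012) and GINS2 low in replicate 4 (78.61). Where a library moved with these values, its part in them was not tested.

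For 12 of the genes named here the lines were called in opposite directions without and with itraconazole. Among all genes called in DMSO and tested with the drug, this held for 972 of 10214 (9.52%). The difference between those differences passed a test over the 16 libraries in all 12 (edgeR, interaction of line and drug, adjusted over all tested genes). Each of the 972 passed it as well, so passing followed from the choice of genes and adds no support. The change in the log2 difference from DMSO to itraconazole was negative, so that HT55 lost its lead, for the sterol genes INSIG1 (-4.375), HMGCS1 (-2.86) and CYP51A1 (-2.336). It was also negative for the CDK inhibitor genes CDKN1C (-3.386) and CDKN1A (-1.11), and for CD68 (-1.834), SOX9 (-0.9678) and CTNNB1 (-0.8867). It was positive for CYP3A5 (2.005), GINS4 (1.628), APC (1.592) and ABCC3 (0.8971), which were higher in SW948 without drug and higher in HT55 with it. The adjusted p-values ran from 7.81e-10 for INSIG1 to 5.88e-04 for CDKN1A.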

How the results depend on the processing

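The count of genes called between the lines, 10796 of 12820 tested, lay between 9233 and 12392 under other scalings, filters, tests and fits. The lowest was 9233 of 11065 tested, with at least 10 counts in every library. The highest was 12392 of 24053 tested, without a filter, which is a lower share. At a difference of at least 2-fold the count was 4153. Leaving out 1 library gave 10655 to 10909. Of 535 list members tested 492 were called, 264 at 2-fold or more and 487 to 494 with 1 library left out. Over all tested genes 84.2% were called, and 15.2% and 17.2% were at least 2-fold higher in HT55 and in SW948. Genes nearly absent from 1 line numbered 78, 145 when 10 counts were allowed in place of 3, and 80 to 90 with 1 library left out, the highest without SW948 replicate 3. The median of 16q was 0.41, and 0.22 on plain library totals. With the replicate block 10827 genes and 491 list members were called, and over the 16 libraries 10075 and 466, against 10055 without the block. Deviations of same-numbered HT55 and SW948 DMSO libraries correlated at -0.078, 0.0090, 0.11 and 0.049. Differently numbered libraries were not set beside them, so these values do not settle whether the numbers pair the samples.

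Of 187 named genes 9 had a log2 difference of the other sign somewhere. On plain library totals these were ABCC10 (-0.19), CCNB1 (-0.099), CD44 (-0.12), CDKN1A (-0.037), HNF4A (-0.027) and MUC5AC (-0.17), which follows the shift of the median there. ABCC10 was at -0.0059 without a filter and -0.021 with at least 10 counts in every library. With DESeq2 size factors and the DESeq2 Wald test MCM7 was at 0.0010 and 0.00099 and MYC at 0.00036 and 0.00025, and MCM7 was at 0.00046 in the fit over 16 libraries. With 1 library left out the ranges were -0.032 to 0.030 for ABCC10, -0.018 to 0.019 for MCM7, -0.15 to 0.20 for MUC5AC, -0.029 to 0.0058 for MYC and -0.048 to 0.026 for SREBF2. Of these 9 genes, CDKN1A and HNF4A were called in the edgeR test of the report. The call of CDKN1A, CYP3A5, EPCAM, HMGCS1, LSS or TCF7L1 was lost in the fits over 16 libraries, that of HMGCS1 or SUFU on plain library totals, and that of TCF7L1 or LSS without 1 library. Beyond the shift on plain library totals, the cause was not tested. The planned comparison of promoter CpG under the 10-count rule was not run, since too few genes had an entry. Depth limits genes of a few counts, where 3 counts in a library correspond to 0.254 to 0.389 CPM.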
